A study of Mus musculus with 6 samples.

Results

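The retinoblastoma (Rb) family, the inhibitors of cyclin-dependent kinases (CDKs) and *E2f1* were examined in mammary tumors of BK5.ATF3 mice. The members were taken by gene symbol from a fixed list of 10 genes, and 9 of them were measured among the 15280 genes of the table, while *Cdkn2a*, which encodes p16INK4a and p19ARF, was not analysed here. RNA-Seq libraries came from 3 parous transgenic females, each giving 1 mammary tumor (T11035, T11640, T9232) and the normal, adjacent mammary gland (M11035, M11640, M9232), so n = 3 for each tissue, and values are given below in this order of mice. The labels give the genotype of all 6 samples as ATF3 transgenic, so the glands carried the transgene too and no wild-type tissue was compared. The BK5 promoter directs ATF3 to basal epithelial cells, and tumors arose at 6 to 12 months and were taken at a length of 1.5 cm. The age of each animal and whether fragments of the transgene were counted as *Atf3* are not given in the sources used here.

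The pocket proteins pRB, p107 and p130, encoded by *Rb1*, *Rbl1* and *Rbl2*, bind E2F transcription factors and hold back the genes that cells need to enter S phase. Cyclin D with CDK4 or CDK6, and then cyclin E with CDK2, phosphorylate the pocket proteins and free E2F. CDK inhibitors act on these kinases. The INK4 proteins (p15 from *Cdkn2b*, p18 from *Cdkn2c*) bind CDK4 and CDK6 alone, whereas the CIP/KIP proteins (p21 from *Cdkn1a*, p27 from *Cdkn1b*, p57 from *Cdkn1c*) bind cyclin-CDK complexes more broadly.

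The tumors held less *Rb1* and *Rbl2* mRNA than the glands, and *Rbl1* did not pass the test. Among the inhibitors, *Cdkn1a* and *Cdkn2b* rose and *Cdkn2c* fell, while *Cdkn1b*, *Cdkn1c* and *E2f1* did not pass. In bulk tissue fewer cells of a type and less RNA per cell cannot be told apart, and adipocyte, lymphocyte and epithelial markers differed strongly between the tissues, with values given at the end. Skeletal muscle markers were high in M11035 and M11640 alone. Expression is given as CPM, fragment counts scaled to edgeR's effective library size, and fold changes are on the log2(CPM + 0.5) scale. A gene was called with limma at an adjusted p of at most 0.05 (Benjamini-Hochberg over all genes) and an FC of at least 2. By this rule 2 of the 9 members rose, where 14.5% of all genes did, and 3 fell, where 13.7% of all genes did. The tumors and glands did not overlap in 5 of the 9 members, compared with 54.0% of all genes. The median log2 fold change was 0.05 over the 9 members and 0.00 over all genes.

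**Figure D1:**
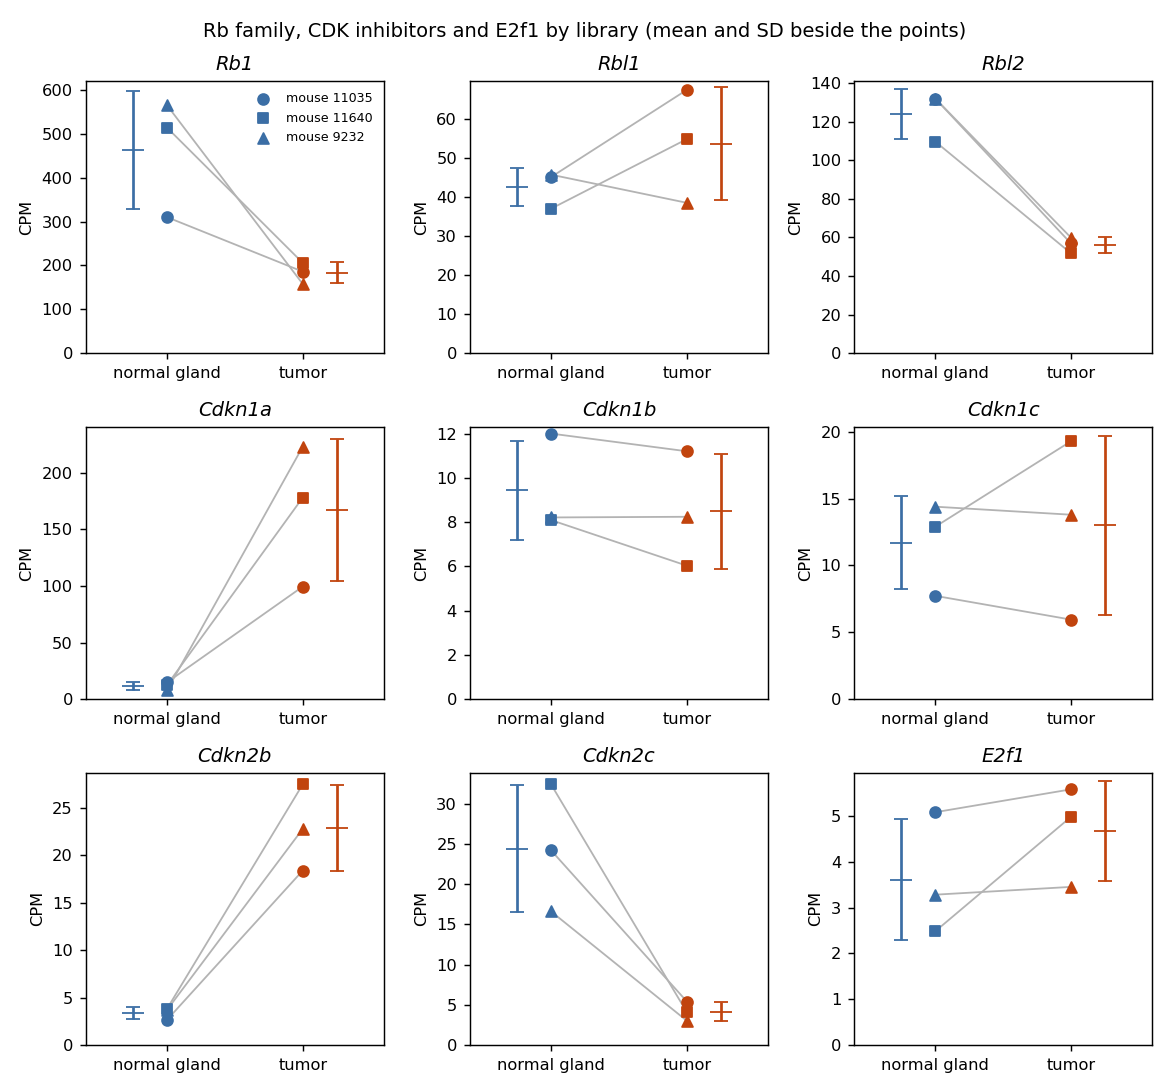
Expression in CPM (vertical axis, linear, from 0) of the 9 members in each normal gland (blue) and tumor (orange), with lines joining the libraries of 1 mouse and the mean and SD (n = 3) beside the points. *Rb1*, *Rbl2* and *Cdkn2c* lie lower in every tumor, *Cdkn1a* and *Cdkn2b* lie higher, and the tissues overlap in the other 4 genes.

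RefSeq promoter sequences (GRCm38.p6, 250 bases before the start and 50 after it) were held for 8 of the 10 genes, 11 promoters in all, and each matched mm9 exactly at 1 place. The 250 bases before the start were searched on both strands for an E2F site (TTTCGCGC, TTTGGCGC or TTTCCCGC), the CHR element bound by the MuvB complex (TTTGAA), a cAMP response element (CRE, TGACGTCA) and an AP-1 site (TGACTCA). CRE and AP-1 letters were included because ATF3 belongs to a family of factors known to bind them. Shown are the stretches that hold an E2F site or a CRE, written along the gene with the motif in capitals.

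*Rbl1*, mm9 chr2:157030271-157030313, minus strand, E2F site 18 to 11 bases before the start: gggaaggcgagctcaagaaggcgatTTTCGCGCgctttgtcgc

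*Cdkn2b*, mm9 chr4:88956955-88957012, minus strand, CRE 46 to 39 bases before the start: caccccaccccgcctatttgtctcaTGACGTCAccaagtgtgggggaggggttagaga

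*Cdkn2a*, first of 2 promoters, mm9 chr4:88940590-88940647, minus strand, E2F site 99 to 92 bases before the start: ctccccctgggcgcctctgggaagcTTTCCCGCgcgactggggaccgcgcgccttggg

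An E2F site occurred in 1.53% of the 32851 RefSeq mouse promoters and a CRE in 1.55%. The CHR letters, held by 16.0% of promoters, occurred in those of *Rbl2* and *Cdkn2b*. AP-1 letters, held by 4.46%, occurred in 0 of the 11. A match of letters is a description and does not show that a factor binds there. *Rb1* and *Cdkn1c* had no promoter sequence here. The window of *E2f1* (mm9 chr2:154395113-154395412) and those of *Cdkn2c* lay inside the gene bodies annotated by GENCODE. Bases before the GENCODE start of *E2f1* and *Cdkn2c* were therefore not searched.

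*Rb1* (ENSMUSG00000022105.6, mm9 chromosome 14, 73583480 to 73725629) was measured at 310.1, 514 and 565 CPM in the glands and at 186, 206 and 158 CPM in the tumors. All tumors were lower than all glands, and gland M11035 was the lowest of its group. The mean fell from 463 ± 135 CPM (SD, n = 3) to 184 ± 24.1 CPM, a log2 fold change of -1.29 (95% interval -1.82 to -0.77, limma adjusted p = 0.00244). Single mice differed in size, with log2 fold changes of -0.73, -1.31 and -1.83. *Rb1* shares 488 bp of exon with *Rcbtb2* and 408 bp with *Lpar6*, both on the opposite strand, out of 6015 bp of *Rb1* exon, and whether the counting used strand is not given in the sources used here. *Rcbtb2* itself fell (log2 fold change -1.07, limma adjusted p = 0.00162), and *Lpar6* had a log2 fold change of -0.31 (limma adjusted p = 0.207).

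*Rbl2* (ENSMUSG00000031666.8, mm9 chromosome 8, 93593956 to 93647743) encodes p130, the pocket protein most associated with resting cells. Its level was 132, 109.7 and 132 CPM in the glands and 56.9, 51.8 and 59.9 CPM in the tumors. The spread within each tissue was small against the gap between them. From 124 ± 12.8 CPM (SD, n = 3) the mean fell to 56.2 ± 4.13 CPM, a log2 fold change of -1.14 (95% interval -1.47 to -0.80, limma adjusted p = 4.36e-04), and the values in the mice ran from -1.21 to -1.08. Its exons share 693 bp with *Aktip* on the opposite strand, whose log2 fold change was 0.91 (limma adjusted p = 0.00340), below the FC threshold.

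*Rbl1* (ENSMUSG00000027641.7, mm9 chromosome 2, 156971629 to 157030270) encodes p107, which is itself a known E2F target. It was at 45.1, 37.0 and 45.7 CPM in the glands and 67.4, 54.8 and 38.5 CPM in the tumors. The tissues overlapped, because tumor T9232 lay among the glands while the other two tumors lay above them. The log2 fold change of 0.30 did not pass (95% interval -0.21 to 0.80, limma adjusted p = 0.314). In the tumors, the summed CPM of 10 markers of cycling cells had the same order as *Rbl1*, at 1611, 1287 and 903 CPM. In the glands the sums were 615, 332 and 563 CPM. There M11640 was lowest for both, but M11035 and M9232 were in the opposite order. The part of cycling cells in the *Rbl1* values was not tested.

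*E2f1* (ENSMUSG00000027490.10, mm9 chromosome 2, 154385143 to 154395628) encodes the E2F factor classically bound by pRB. Between 15 and 38 fragments fell on it per library, giving 5.08, 2.48 and 3.28 CPM in the glands and 5.58, 4.98 and 3.45 CPM in the tumors. Every tumor was above the gland of its own mouse, but the tissues overlapped. The log2 fold change was 0.35 (95% interval -0.37 to 1.08, limma adjusted p = 0.404), so neither no difference nor a doubling was outside the interval.

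*Cdkn1a* (ENSMUSG00000023067.7, mm9 chromosome 17, 29227924 to 29237667), a p53 target gene, had 14.8, 12.4 and 7.66 CPM in the glands and 99.4, 178 and 223 CPM in the tumors. The lowest tumor was well above the highest gland, and the mouse with the lowest gland had the highest tumor. The mean rose 14.3-fold, from 11.6 ± 3.65 to 167 ± 62.5 CPM (SD, n = 3), with a log2 fold change of 3.76 (95% interval 3.00 to 4.51, limma adjusted p = 5.37e-05). In the single mice the log2 fold change was 2.70, 3.79 and 4.77. *Cdkn1a* had the largest change of the 9 members and ranked 306 by rise among the 15280 genes.

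*Cdkn2b* (ENSMUSG00000073802.4, mm9 chromosome 4, 88952198 to 88956941), an INK4 gene known to respond to TGF-β, had 2.64, 3.80 and 3.69 CPM in the glands and 18.4, 27.5 and 22.8 CPM in the tumors. The glands lay on 13 to 27 fragments per library, above the floor of 3 fragments used here for detection. Its mean rose 6.78-fold, from 3.38 ± 0.639 to 22.9 ± 4.55 CPM (SD, n = 3), and the log2 fold change was 2.59 (95% interval 2.04 to 3.14, limma adjusted p = 7.46e-05). The 3 mice were close to each other, with log2 fold changes from 2.47 to 2.70.

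*Cdkn2c* (ENSMUSG00000028551.8, mm9 chromosome 4, 109333481 to 109339794), the other INK4 gene measured, went the opposite way. It had 24.2, 32.4 and 16.6 CPM in the glands and 5.40, 4.06 and 3.00 CPM in the tumors. No tumor reached the level of any gland. The mean was 5.87-fold lower in the tumors, at 4.15 ± 1.20 against 24.4 ± 7.91 CPM (SD, n = 3), with a log2 fold change of -2.40 (95% interval -3.09 to -1.71, limma adjusted p = 3.77e-04). Of the 15280 genes, *Cdkn2c* ranked 604 by fall.

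*Cdkn1b* (ENSMUSG00000003031.8, mm9 chromosome 6, 134870419 to 134875531) encodes p27, whose amount is known to be set largely by protein turnover. It stayed between 6.03 and 12.0 CPM in all 6 libraries, with means of 9.43 ± 2.22 CPM (SD, n = 3) in the glands and 8.48 ± 2.58 CPM in the tumors. The log2 fold change of -0.16 did not pass (95% interval -0.80 to 0.47, limma adjusted p = 0.672), and the interval holds no change of 2-fold. *Cdkn1c* (ENSMUSG00000037664.6, mm9 chromosome 7, 150644255 to 150646955), an imprinted gene encoding p57, had 7.73, 12.9 and 14.4 CPM in the glands and 5.95, 19.3 and 13.8 CPM in the tumors. Both the highest and the lowest library were tumors. With a log2 fold change of 0.05 (95% interval -0.89 to 1.0, limma adjusted p = 0.934), its difference was not detectable within this spread.

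**Figure D2:**
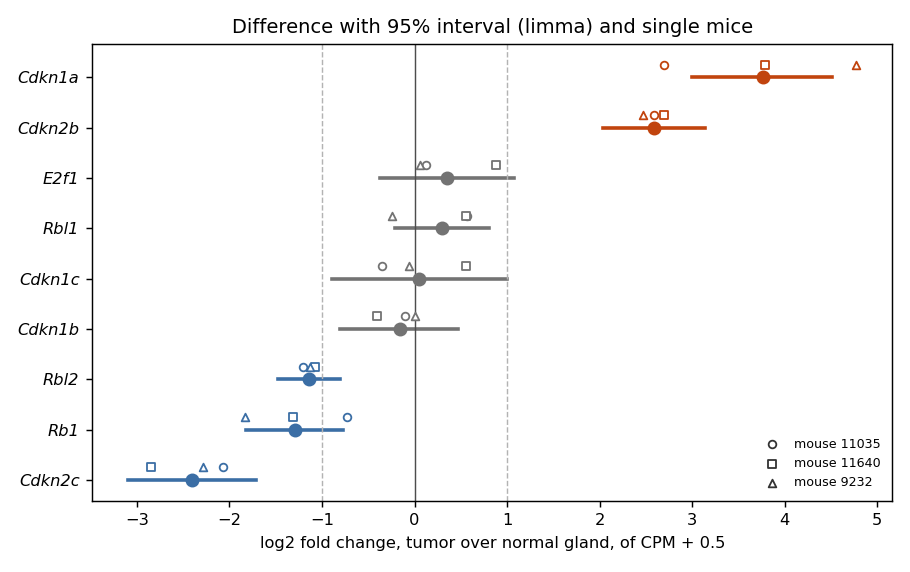
Log2 fold change of tumor over normal gland (horizontal axis, CPM + 0.5) for the 9 members, with filled points and bars for the limma estimate and its 95% interval, open symbols for single mice and dashed lines at a 2-fold change. Red marks genes that rose, blue genes that fell and gray genes that were not called, from 3.76 for *Cdkn1a* to -2.40 for *Cdkn2c*.

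Levels were then compared between members per kb of exon, on the CPM per kb scale. *Rb1* was the most abundant pocket protein gene in every library. The 3 pocket protein genes summed to 102 ± 21.8 CPM per kb (SD, n = 3) in the glands and 47.6 ± 5.37 in the tumors. *Rbl1* made up 9.65%, 5.75% and 6.32% of that sum in the glands and 22.3%, 18% and 15.5% in the tumors, with no overlap. The level of *Rbl1* itself overlapped, at 7.11 ± 0.812 CPM per kb in the glands and 8.94 ± 2.41 in the tumors. *Rb1*, the largest part of the sum, was at 77.0 ± 22.4 and 30.5 ± 4.01. The share of *Rbl2* overlapped between the tissues, at 18.2% ± 5.28 in the glands and 17.2% ± 3.22 in the tumors, and *Rb1* went from 74.5% ± 7.39 to 64.2% ± 3.01, with gland M11035 (66.1%) inside the range of the tumors.

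The 5 CDK inhibitor genes summed to 24.8 ± 3.69 CPM per kb (SD, n = 3) in the glands and 102 ± 32.1 in the tumors. In the glands *Cdkn2c* held the largest mean share, 35.9% ± 6.69, followed by *Cdkn1c* with 24.8% ± 9.14 and *Cdkn1a* with 21% ± 5.94, and neighbours in this order overlapped in range. In the tumors *Cdkn1a* made up 68.3%, 71.1% and 79.1% of the sum, *Cdkn2b* followed with 16.9% ± 3.69, and *Cdkn2c* was at 1.76% ± 1.15. *E2f1* was at 1.15 ± 0.423 CPM per kb in the glands and 1.48 ± 0.349 in the tumors.

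**Figure D3:**
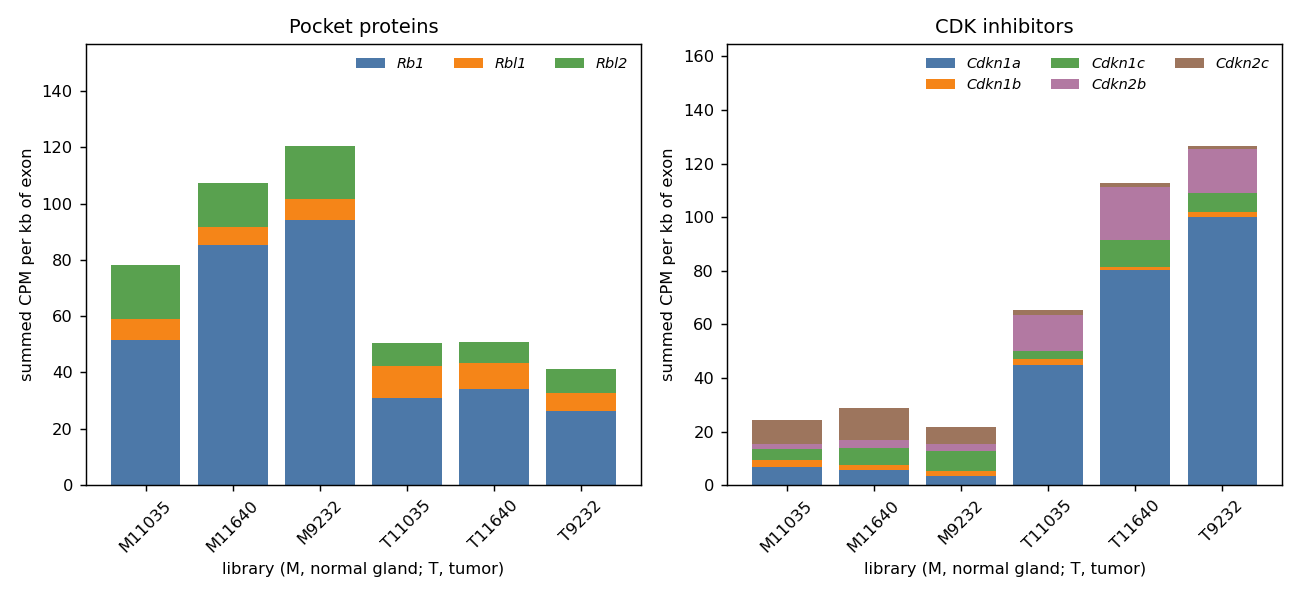
Stacked CPM per kb of exon (vertical axis, linear) of the pocket protein genes (left) and the 5 CDK inhibitor genes (right) in each library. The pocket protein sum lies between 41.4 and 50.9 in the tumors and between 78 and 121 in the glands, and *Cdkn1a* is the largest part of the inhibitor sum in each tumor.

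Ratios between members were compared within libraries, as log2 ratios of CPM + 0.5, over 5 pairs with an exact two-sided permutation test. With 3 against 3 libraries its smallest p is 0.1, so no pair could reach 0.05. The log2 ratio of *Cdkn2b* to *Cdkn2c* went from -2.64 ± 0.54 (SD, n = 3) in the glands to 2.35 ± 0.58 in the tumors, a difference of 4.99 (exact permutation p = 0.10, adjusted p = 0.125). Per kb of exon, *Cdkn2c* was the higher of this pair in every gland and *Cdkn2b* in every tumor. The log2 ratio was 3.92 higher in the tumors for *Cdkn1a* to *Cdkn1b*, 1.65 for *E2f1* to *Rb1* and 1.59 for *Rbl1* to *Rb1*, each with the same exact permutation p of 0.10 and adjusted p of 0.125. In the pairs of *E2f1* and *Rbl1* with *Rb1*, *Rb1* fell and neither *E2f1* nor *Rbl1* was called on its own. The log2 ratio of *Rbl2* to *Rb1* overlapped between the tissues, with a difference of 0.16 (exact permutation p = 0.70).

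Genes that act with the members were described by 8 lists compiled by hand, each by its count of calls and its median, beside 49.8% of all genes higher in the tumors and the shares of calls given above. Of 9 E2F and DP factors, 3 rose and 0 fell, with a median log2 fold change of 0.69. *E2f8* rose from 6.55 ± 1.70 to 58.9 ± 10.1 CPM (SD, n = 3, change on the log2 scale 3.09, limma adjusted p = 2.27e-05), and *E2f7* by a log2 fold change of 2.03. Both encode atypical E2Fs that repress E2F targets without a DP partner. The third was the activator *E2f3* (log2 fold change 1.23), while *Tfdp2*, which encodes a DP partner, was lowest with -0.68 and not called.

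Of 25 E2F target genes of S phase, 24 had a higher estimate in the tumors, but 6 were called and 0 fell. Their median log2 fold change was 0.63, and it was 0.62, 1.13 and 0.23 in the single mice. *Cdk1* rose most, from 5.09 ± 1.35 to 21.3 ± 5.78 CPM (SD, n = 3, change on the log2 scale 1.95, limma adjusted p = 8.15e-04), together with *Rrm2*, *Uhrf1*, *Ccna2*, *Chaf1a* and *Rrm1*. The 6 *Mcm* genes of the replicative helicase had log2 fold changes from 0.34 to 0.67, and none passed. *Ccne1*, which encodes cyclin E1, was lowest with -0.80 (limma adjusted p = 0.154).

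Of 10 G1 cyclins, CDKs and their partners, *Ccnd1* and *Ccnd2* rose and 0 fell (median 0.26). *Ccnd1*, encoding cyclin D1, rose from 67.9 ± 10 to 426 ± 38.3 CPM (SD, n = 3, change on the log2 scale 2.65, limma adjusted p = 7.56e-06), and *Ccnd3* was lowest with a log2 fold change of -0.49 (limma adjusted p = 0.155). Of 7 genes for the MuvB core and its partners, *Foxm1* rose (log2 fold change 1.49), *Lin52* was lowest with -0.80 and not called, and the median was 0.38. Of 10 co-repressors of pocket proteins, 0 were called, with log2 fold changes from -0.64 for *Arid4a* to 0.72 for *Hdac1*.

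Of 10 genes listed under the turnover of p27 and p21, not all of which act on these proteins, 3 rose and 0 fell (median 0.54). These were *Skp2*, the receptor of the ubiquitin ligase that marks p27, and its cofactor *Cks1b*, with log2 fold changes of 1.08 and 1.07, and *Cks2*, with 1.46. Without M11640 or without T11640 only 1 of the 10 was called. *Fbxw7*, which marks cyclin E for turnover, was lowest with -0.22 and not called. Of 6 genes around ARF and p53, *Mdm2* rose (log2 fold change 1.03), *Hipk2* fell (-1.31) and *Trp53* was not called, at 48.3 ± 5.15 CPM (SD, n = 3) in the glands and 58.2 ± 8.78 in the tumors. *Mdm2* was not called without M11640, without T9232 or with upper quartile scaling. Of 18 regulators of the INK4 locus, *Tbx3*, *Id1* and *Ets2* rose, *Cbx7* and *Ets1* fell, and the median was 0.32. *Tbx3*, a repressor of the locus, rose from 5.54 ± 1.96 to 56.2 ± 4.43 CPM (change on the log2 scale 3.28, limma adjusted p = 2.31e-05), and *Cbx7*, a Polycomb subunit, fell from 20.8 ± 7.16 to 4.21 ± 1.94 CPM (change on the log2 scale -2.20, limma adjusted p = 0.00142). The list of other inhibitors held *Cdkn2d* alone, which was not analysed here.

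**Figure D4:**
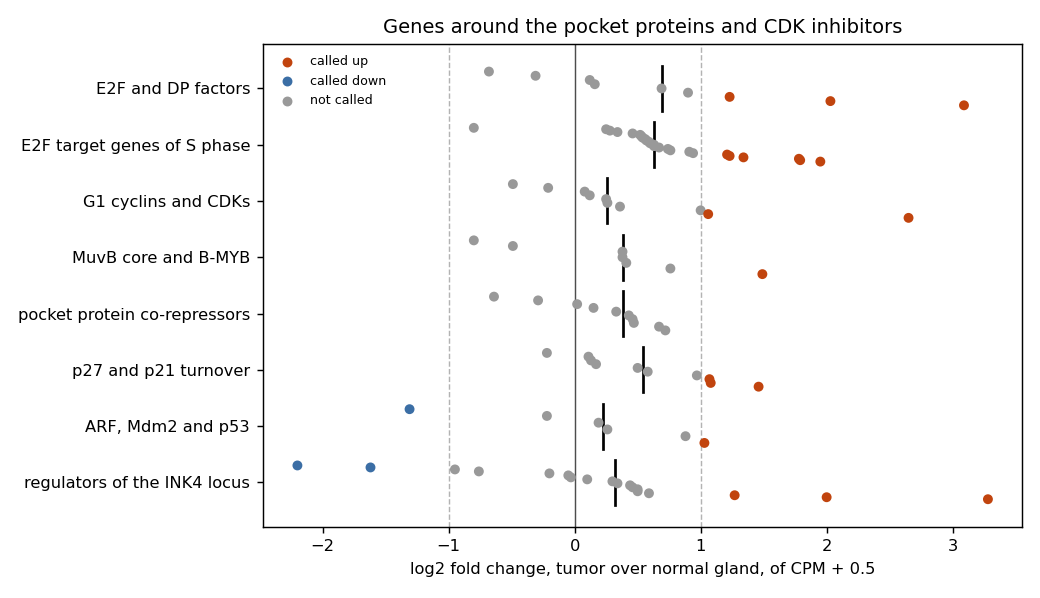
Log2 fold change of tumor over normal gland (horizontal axis, CPM + 0.5) of each gene on 8 lists, with a black bar at the median of a list, dashed lines at a 2-fold change and red or blue for called genes. The medians run from 0.23 to 0.69, and called falls occur on the lists of ARF, Mdm2 and p53 and of the INK4 locus.

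The genes nearest to each called member were found by the root mean square difference of centred log2 values over the 6 libraries, among the 9339 genes averaging 10 CPM or more. *Sorbs2* and *A830010M20Rik* were among the nearest to *Rb1*, with distances of 0.0992 and 0.127. *Hdgfrp3*, *E330033B04Rik* and *Phyhd1* were nearest to *Rbl2* (0.0697 to 0.0824), and *C130074G19Rik*, *Nr3c2* and *Acyp2* to *Cdkn2c* (0.130 to 0.174). *Ammecr1*, *Grhl1* and *Rab25* were nearest to *Cdkn2b* (0.0712 to 0.109). *Nipal1*, *Zfp92* and *Idi2* were the nearest to *Cdkn1a*, with larger distances of 0.264 to 0.336. *Grhl1*, which encodes an epidermal transcription factor, had 24.4 ± 3.40 and 154 ± 23.4 CPM (SD, n = 3), and *Nr3c2*, which encodes the mineralocorticoid receptor, had 18.9 ± 3.54 and 3.03 ± 0.765 CPM in glands and tumors.

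Summed marker mRNA of several cell types differed between the tissues along with these results. All 10 adipocyte markers fell, from a summed level of 8174 to 15504 CPM in the glands to 260.0 to 434 CPM in the tumors, as did all 8 B cell markers (322 to 815 CPM against 15.4 to 16.5 CPM) and all 8 T cell markers (210.1 to 491 CPM against 21.4 to 38.4 CPM). All 8 basal epithelial markers rose (235 to 362 CPM in the glands, 2832 to 3361 in the tumors), as did the 7 squamous markers measured (6.91 to 8.59 against 1541 to 2802), of which *Lor* was at 0 in all glands. Of the luminal markers 3 of 8 rose and 1 fell. *Krt8* and *Krt18*, which rose, were above 10 CPM in every library. *Elf5* fell from 47.4 ± 30.9 to 6.62 ± 1.90 CPM (SD, n = 3, log2 fold change -2.59). Neutrophil markers rose in 4 of 5 and fibroblast markers in 3 of 7, while endothelial markers fell in 2 of 7 and macrophage markers in 1 of 7, with 1 risen. All 10 markers of cycling cells rose, *Mki67* by a log2 fold change of 1.03 and *Top2a* by 1.54. Skeletal muscle markers stood at 3745 and 1481 CPM in glands M11035 and M11640 but at 4.24 CPM in M9232. *Rb1* was called with any gland left out, at log2 fold changes of -1.56 without M11035, -1.19 without M11640 and -1.13 without M9232. Each omission kept M11035 or M11640 among the glands, so the part of muscle in the *Rb1* values was not tested. *Atf3* was at 11.7 ± 9.58 CPM in the glands, highest in M9232 with 22.6 CPM, and at 17.0 ± 3.18 CPM in the tumors (log2 fold change 0.80, limma adjusted p = 0.223). Without M9232 the log2 fold change of *Atf3* was 1.41 and it was called (limma adjusted p = 0.00804). Without M11035 it was 0.30 and not called (limma adjusted p = 0.594). Nor was *Atf3* called with the mouse block (limma adjusted p = 0.104), edgeR (adjusted p = 0.440) or DESeq2 (adjusted p = 0.430). The most abundant gene was *Lpl* among adipocyte markers, *Krt5* among basal, *Krt10* among squamous, *Epcam* among luminal, *Cr2* among B cell, *Cd28* among T cell, *Mrc1* among macrophage, *S100a9* among neutrophil, *Pecam1* among endothelial, *Col3a1* among fibroblast and *Myh4* among muscle markers. The part of these differences in the levels of the members was not tested.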

How the data were processed

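RNA-Seq libraries (Ovation RNA-Seq System V2, paired-end) of 3 tumors and 3 matched glands were used. Per the submitters' notes and the methods, the authors mapped reads to mm9 with TopHat2 2.0.3, counted fragments per RefSeq gene with HTSeq 0.5.3p9, removed genes with fewer than 10 fragments over all samples and scaled with edgeR 3.6.1. The deposited signal is CPM on the effective library size, so columns sum to 952151 to 1041166. In every library 100.0% of values were whole multiples of 1 fragment (tolerance 0.01), which gave 4750989 to 7372155 fragments in the glands and 5116883 to 7806908 in the tumors. The floor of 3 fragments is 0.393 to 0.610 CPM and covers counting error only. Libraries of 1 tissue differed beyond sampling noise (chi-square over degrees of freedom at least 13.0), so no library was a copy.

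Differences were tested over all 15280 genes by two-sided limma tests (version 3.58.1, R 4.3.3), which took log2(CPM + 0.5) as input, used a trend of variance on level and held no block. The unit had been planned as CPM and takes the same test. Both libraries of a mouse come from 1 animal and so are paired. Over 14712 genes, their deviations from the tissue means correlated with r = 0.107, 0.151 and 0.0168, and the methods name no block, so the mouse block is an alternative. Other alternatives were pseudocounts 0.1 and 1, a minimum mean of 1 CPM, no trend, plain total and upper quartile scaling, edgeR 4.0.16 and DESeq2 1.42.0 on the recovered fragments, the adjusted p alone, and each library left out. The fits were tested on simulated data.

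Named genes were all members, the highest and lowest gene of each list (mean of at least 1 CPM), the 3 nearest profiles of each called member, genes with exons overlapping a member, the most abundant gene of each marker list, and *Mki67*, *Top2a* and *Atf3*. One of the nearest profiles is not reported here. The other list genes named are those called, and *Trp53*, *Cdk4*, *Elf5* and the *Mcm* genes were named after their values were seen. The markers *Krt8*, *Krt18* and *Lor* are named outside these rules. The members, lists and motifs were chosen with earlier results of these data known. Positions, overlaps and exon lengths come from GENCODE vM1 on mm9, whose gene models may differ from the RefSeq models that were counted. The *Cdkn2a* to *Cdkn2b* ratio was planned and not made, since *Cdkn2a* was not analysed here.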

Additional observations from a re-analysis of the deposited data

How the results depend on the processing

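All 5 called members kept their call and direction in all 15 refits (2 other pseudocounts, minimum mean, no trend, mouse block, edgeR, DESeq2, 2 scalings and 6 omitted libraries), and the other 4 stayed uncalled. With the mouse as a replicate block the adjusted p was 0.00318 for *Rb1* in limma (over all refits 2.95e-06 with DESeq2 to 0.0147 in limma without tumor T9232), and the block changed no call of a member. The paired sign-flip test of the ratios can reach no p below 0.25. With each library left out in turn, the log2 fold change ran from -1.56 to -1.13 for *Rb1*, -1.22 to -1.08 for *Rbl2*, 3.50 to 4.09 for *Cdkn1a*, 2.44 to 2.73 for *Cdkn2b*, -2.65 to -2.17 for *Cdkn2c*, 0.11 to 0.51 for *Rbl1* and 0.15 to 0.60 for *E2f1*. The sign of 2 uncalled members turned. *Cdkn1b* ran from -0.37 to 0.05 (0.01 without gland M11035, 0.05 without tumor T11640), and *Cdkn1c* from -0.30 to 0.51 (-0.21 without gland M11035, -0.30 without tumor T11640 and -0.06 without tumor T9232). The difference in the *Rbl2* to *Rb1* ratio ran from -0.03 (without gland M11640) to 0.47. Over the 93 listed genes, 19 rose and 3 fell, and with the adjusted p alone 33 and 7 passed. By construction that rule drops the FC threshold. The call of *Mdm2* and the counts on turnover genes and on G1 cyclins and CDKs also changed, as given above. Depth limits the low members, with 15 to 38 fragments behind each value of *E2f1*. There were 13 to 27 behind the gland values of *Cdkn2b* and 20 to 31 behind the tumor values of *Cdkn2c*.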
